A study of Mus musculus with 6 samples.

Results

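The 10 genes described here serve the handling of glutamine and branched-chain amino acids in skeletal muscle. They were chosen by symbol, matched to the Entrez gene IDs of the deposited values, and all 10 were found among the 13363 listed genes. They are Glul, which encodes glutamine synthetase, Bcat2, which encodes the mitochondrial branched-chain aminotransferase, and the branched-chain ketoacid dehydrogenase (BCKDH) genes Bckdha, Bckdhb and Dbt with their kinase gene Bckdk. The other members are the amino acid transporter genes Slc7a5, Slc3a2, Slc38a2 and Slc7a8. RNA was sequenced from gastrocnemius muscles of 3 C26 and 3 control animals, all male mice of the Balb/c strain, bought at 6 weeks of age and acclimated for 1 week. The C26 mice carried subcutaneous tumors from 500000 inoculated cells of the C26 line, a mouse colon adenocarcinoma that causes wasting, and the control mice were not inoculated. The model therefore rests on a single tumor line, and muscles were sequenced from 3 of the 10 mice of each group.

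Muscle is a main site where leucine, isoleucine and valine are broken down. Bcat2 moves their amino group to alpha-ketoglutarate, which yields glutamate, and the BCKDH complex then decarboxylates the ketoacids in a step that cannot be undone. Bckdk phosphorylates and inhibits that complex, and a phosphatase encoded by Ppm1k relieves the inhibition. Glutamine synthetase joins ammonia to glutamate, so nitrogen taken from branched-chain amino acids can leave muscle as glutamine. Slc3a2 is the heavy chain that carries the light chains Slc7a5 (LAT1) and Slc7a8 (LAT2) to the membrane, where they exchange large neutral amino acids, and Slc38a2 (SNAT2) takes up small neutral amino acids and glutamine with sodium.

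Of the 10 genes, 7 were higher in C26 muscles and 0 were lower at an adjusted p under 0.05 in limma, with Benjamini-Hochberg (BH) adjustment over all 13363 genes, and 0 were lower at an unadjusted p under 0.05. Among all genes tested, 19.4% were higher and 14.5% lower by the same call. The 7 were Glul, Bckdha, Bckdhb, Dbt, Slc3a2, Slc38a2 and Slc7a8, and they were also the members whose FPKM in every C26 muscle lay above every control muscle, a pattern held by 18.7% of all genes, while 34.6% had every C26 muscle below every control muscle. The median log2 fold change was 0.91 for the 10 genes and -0.05 for all genes. Glul and Slc7a8 also passed the study's criterion for differentially expressed genes (DEGs), a fold change above 4, which 1.77% of all genes passed upward. Bcat2, Bckdk and Slc7a5 did not pass the test. The members called higher were 2 without control replicate 1 and 4 without C26 replicate 1.

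**Figure D1:**
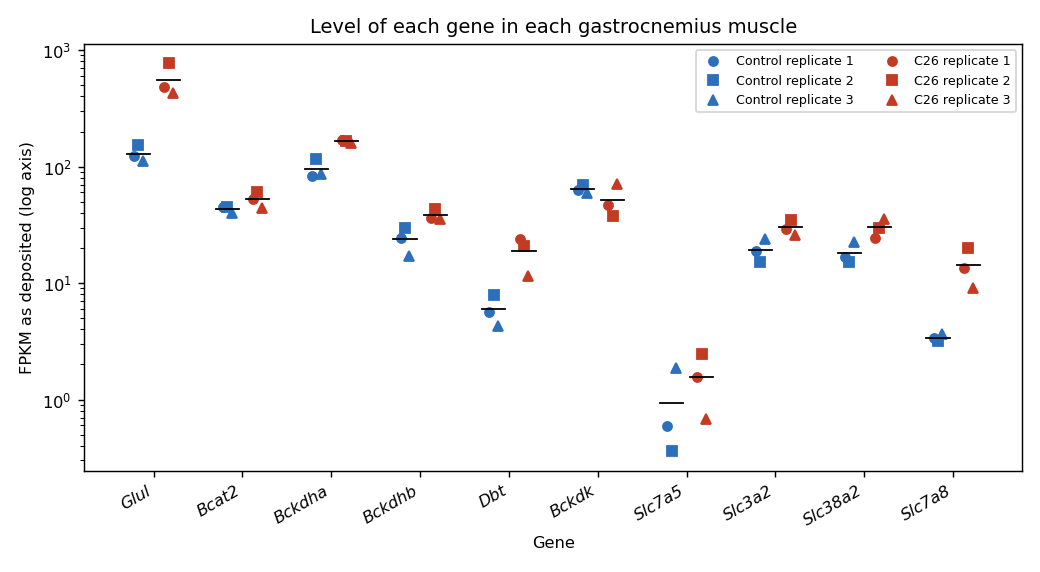
Deposited FPKM of the 10 genes (log axis) in each of the 3 control (blue) and 3 C26 (red) gastrocnemius muscles, with symbols for the replicates and black bars for the group means. Glul, Bckdha, Bckdhb, Dbt, Slc3a2, Slc38a2 and Slc7a8 lie higher in every C26 muscle than in every control muscle, while the groups overlap for Bcat2, Bckdk and Slc7a5.

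The labelled tissue was checked with markers of muscle fibers and of other cells, as FPKM summed over each list of 10 genes. These FPKM were as deposited, and over all listed genes they summed to 531061 to 585169 in C26 and 626992 to 688300 in control muscles. The fiber markers, among them Acta1, Ckm and Mb, summed to 53437 to 75544 in C26 and 88829.6 to 91226 in control muscles. Of the 10, Des was called higher and 0 lower (limma, with 1 lower at an unadjusted p under 0.05). Their median log2 fold change was -0.05, with 5 above and 5 below 0. The sums were mostly Acta1, Ckm, Tnnt3 and Myh4, of which none was called. Adipocyte markers, among them Adipoq, Plin1 and Cidec, summed to 463 to 600.2 in C26 muscles and to 4332, 2187 and 589.8 in control replicates 1, 2 and 3. Of these 10, 6 were lower and 1 was higher in C26 muscles (limma, adjusted p under 0.05). Fibroblast markers summed to 179 to 242 in C26 and 423 to 570.4 in control muscles, with 5 called lower. Endothelial markers summed to 87.7 to 95.1 and 102 to 159, with 2 called lower. The 6 listed immune markers summed to 32.6 to 285 and 36.7 to 244, with 0 called either way (limma) and 1 in each direction at an unadjusted p under 0.05, and Cd3e, Cd79a and Ms4a1 were among those with no value analysed here. The part of these cells in the levels below was not tested, and in whole muscle a change in the number of cells of a type and a change in RNA per cell cannot be told apart.

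The sequences around the start sites of 8 of the 10 genes were taken from RefSeq (GRCm38.p6), as windows from 250 bases before to 50 bases within each annotated start. Dbt and Slc7a5 had no window. Short motifs were searched on both strands in the 10 windows of these genes, because the factors that bind them respond to glucocorticoids, amino acid shortage or fasting. The glucocorticoid receptor element (GNACA and TGTNC with NNN between them), the amino acid response element TGATGNAA, the E-box CACGTG and the FoxO element TGTTTAC were each found in 0 of the 10 windows, against 0.475%, 3.97%, 7.15% and 3.65% of all 32851 windows. The Krüppel-like factor motif CCACCC was found in 5 of the 10 windows, those of Glul, Bcat2, Bckdhb, Slc7a8 and Slc38a2, and in 31.5% of all windows. A match describes letters only and does not show binding. The windows of the 2 members with the largest rises, of Slc38a2, which holds a pair of matches close together, and of the kinase gene Bckdk, which was not called and holds no match, are given from 5′ to 3′ with CCACCC or its reverse complement in capitals.
Glul promoter, chr1:153899679-153899978, plus strand: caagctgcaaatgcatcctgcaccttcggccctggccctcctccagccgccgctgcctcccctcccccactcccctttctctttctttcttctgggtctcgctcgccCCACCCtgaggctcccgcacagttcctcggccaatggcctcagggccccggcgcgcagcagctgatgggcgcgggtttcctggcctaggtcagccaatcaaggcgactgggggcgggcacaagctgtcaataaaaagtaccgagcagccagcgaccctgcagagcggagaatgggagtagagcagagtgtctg
Slc7a8 promoter, chr14:54781837-54782136, minus strand: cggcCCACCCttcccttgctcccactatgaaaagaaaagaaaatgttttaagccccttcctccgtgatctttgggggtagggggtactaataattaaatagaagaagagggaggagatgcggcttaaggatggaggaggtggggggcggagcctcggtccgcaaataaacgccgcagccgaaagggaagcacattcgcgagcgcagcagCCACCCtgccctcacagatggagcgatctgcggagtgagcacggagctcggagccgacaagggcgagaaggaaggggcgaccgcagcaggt
Slc38a2 promoter, chr15:96699679-96699978, minus strand: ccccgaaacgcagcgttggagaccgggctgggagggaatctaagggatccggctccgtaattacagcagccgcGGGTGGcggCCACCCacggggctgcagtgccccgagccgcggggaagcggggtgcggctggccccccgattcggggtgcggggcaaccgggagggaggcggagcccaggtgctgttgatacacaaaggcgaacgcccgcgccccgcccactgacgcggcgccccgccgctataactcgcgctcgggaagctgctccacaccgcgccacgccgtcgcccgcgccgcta
Bckdk promoter, chr7:127903823-127904122, plus strand: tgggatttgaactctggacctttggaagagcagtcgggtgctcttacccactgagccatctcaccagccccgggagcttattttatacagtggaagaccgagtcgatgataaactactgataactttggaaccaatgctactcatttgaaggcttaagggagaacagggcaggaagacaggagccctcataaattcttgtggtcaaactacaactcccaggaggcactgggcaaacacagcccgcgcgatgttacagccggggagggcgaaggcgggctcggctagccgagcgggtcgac
With the first transcribed base as 0, the match in Glul began at -143, those in Slc7a8 at -246 and -41, and those in Slc38a2 at -177 and -168. The members with a match included called and uncalled genes, and the windows of the called genes Bckdha and Slc3a2 held no match.

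Glul (Entrez 14645) lies on chromosome 1 from 153899929 to 153909723 (RefSeq, GRCm38.p6). Its level was 479.9, 769 and 424 FPKM in C26 replicates 1, 2 and 3 and 123, 153 and 112 FPKM in control replicates 1, 2 and 3. The lowest C26 muscle was thus well above the highest control muscle, and C26 replicate 2 stood above the other tumor-bearing mice. Means were 558 ± 185 and 129 ± 21.2 FPKM (SD, n = 3 each), and the log2 difference was 2.28, a 4.86-fold difference (standard error 0.26, BH-adjusted p = 0.00355, limma). With single muscles dropped it ranged from 2.06 to 2.50, with adjusted p (limma) up to 0.0239. With quantile normalization it was 1.93, which kept the call but not the fold criterion. Glul was the most abundant of the 10 genes in both groups. Among controls its range overlapped that of Bckdha, the next in order, and among C26 muscles it did not. Of its exonic bases in GENCODE, 3.49% are shared with Teddm2 on the other strand.

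Over the 6 muscles, the profiles most like that of Glul were those of Pla2g12a, Dnajb9 and Actn2. Likeness was the root mean square difference of log2 values after centring each gene, and it was 0.11, 0.15 and 0.16 for these genes among 6792 others with a mean log2 value of at least 3. Pla2g12a, a secreted phospholipase gene, had 140 ± 49.8 FPKM in C26 and 35.7 ± 5.38 in control muscles. Dnajb9, a chaperone gene of the endoplasmic reticulum, had 76.8 ± 22.6 and 15.8 ± 1.95, and Actn2, which encodes an actin-crosslinking protein of the Z-disc, had 766 ± 232 and 210 ± 60.1.

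Enzymes that make or use glutamine and glutamate were examined as a list of 24 genes, of which 23 were listed. Of the 23, 8 were higher and 3 lower in C26 muscles, and 12 did not pass the test, with a median log2 fold change of 0.33. Over all genes 19.4% were higher and 14.5% lower, so the share of lower enzymes was near that of all genes. The higher enzymes were 5 without C26 replicate 2, control replicate 1 or control replicate 3, and 5 with FPKM as deposited. Got1, the cytosolic aspartate aminotransferase, changed most among the higher genes, with 406 ± 161 FPKM in C26 and 89.5 ± 35.4 in control muscles, giving a log2 fold change of 2.39 (standard error 0.40, BH-adjusted p = 0.00823, limma). Gfpt2, which passes the amide nitrogen of glutamine to hexosamines, Gmps, which uses glutamine to make GMP, and Oat, the ornithine aminotransferase, followed Glul with log2 fold changes of 1.44, 1.33 and 1.27. All 4 kept an adjusted p under 0.05 with each muscle left out.

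Among the 3 lower genes, Aldh18a1 and Pycr1 belong to the route from glutamate to proline. Aldh18a1, which starts the route, had 0.387 ± 0.115 FPKM in C26 and 1.26 ± 0.45 in control muscles, and its log2 fold change was -0.77 (BH-adjusted p = 0.0244, limma). Pycr1, a reductase of the last step, had 0.573 ± 0.035 and 1.55 ± 0.35 FPKM, with a log2 fold change of -0.73 (BH-adjusted p = 0.0231, limma). The calls for these low genes were lost without C26 replicate 1, C26 replicate 2 or control replicate 1, and for Pycr1 also without control replicate 2, so that 1 lower enzyme was left in each of the first 3 of these fits. Pycrl, a further reductase of that route named here after its value was seen, was not called and had a log2 fold change of 0.55, although it passed the test without C26 replicate 3 (0.76, BH-adjusted p = 0.0367, limma). Fibroblast markers were lower in every C26 muscle, at the summed levels given above, and their part in these falls was not tested.

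**Figure D2:**
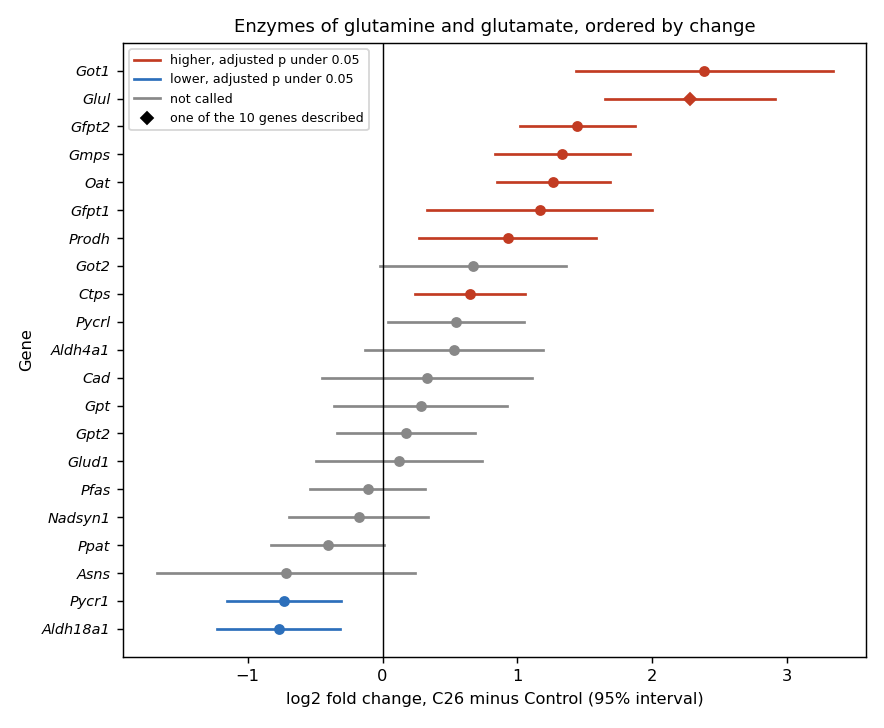
Log2 fold changes (C26 minus control, horizontal axis) with 95% intervals for enzymes of glutamine and glutamate, ordered by change and colored by the call. Got1 at 2.39 and Glul at 2.28 stand at the top, and Pycr1 and Aldh18a1 stand at the bottom.

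Bcat2 (Entrez 12036, chromosome 7 from 45568967 to 45589710) had 52.5, 60.6 and 43.8 FPKM in C26 replicates 1, 2 and 3 and 44.8, 45.0 and 40.0 FPKM in controls 1, 2 and 3. C26 replicate 3 fell within the control range. The means were 52.3 ± 8.40 and 43.3 ± 2.80 FPKM (SD, n = 3 each), and the log2 fold change of 0.47 (95% interval 0.08 to 0.87) did not pass the test (BH-adjusted p = 0.0648, limma). It ranged from 0.05 with quantile normalization to 0.57 without the 20 most abundant genes, which brought it under the threshold (BH-adjusted p = 0.0470, limma), as did dropping C26 replicate 3 (0.64, adjusted p = 0.0255). Of the exonic bases of Bcat2 in GENCODE, 15.9% are shared with an antisense gene, and strand use in the counting is not given in the sources used here.

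Bckdha and Bckdhb encode the alpha and beta subunits of the E1 decarboxylase of BCKDH, and Dbt encodes its E2 transacylase core. Bckdha (Entrez 12039, chromosome 7 from 25629852 to 25658782) had 169.6, 166 and 159.55 FPKM in C26 replicates 1, 2 and 3 and 83.2, 116 and 86.8 FPKM in controls. The C26 muscles were within a few FPKM of each other and all above the highest control, control replicate 2. Means were 165 ± 5.13 and 95.4 ± 18.1 FPKM, giving a log2 fold change of 1.02 (standard error 0.21, BH-adjusted p = 0.0139, limma). A B3gnt8 transcript on the other strand covers 61.7% of the exonic bases of Bckdha in GENCODE, and B3gnt8 itself had 0.64 to 1.33 FPKM in C26 and 1.07 to 4.95 FPKM in control muscles.

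Bckdhb (Entrez 12040, chromosome 9 from 83925111 to 84124240) had 35.9, 43.2 and 35.6 FPKM in C26 muscles and 24.55, 29.9 and 17.1 FPKM in controls. Its log2 fold change was 0.91 (standard error 0.26, BH-adjusted p = 0.0381, limma). Dbt (Entrez 13171, chromosome 3 from 116513070 to 116549981) had 24.0, 20.85 and 11.4 FPKM in C26 muscles and 5.66, 7.92 and 4.31 FPKM in controls. Its level in C26 replicate 3 was the lowest of the C26 muscles and still above the controls. The log2 fold change of Dbt was 1.73 (standard error 0.34, BH-adjusted p = 0.0124, limma), the largest of the subunit genes. Without C26 replicate 1 or control replicate 1, the adjusted p (limma) was 0.0566 and 0.0573 for Bckdha, 0.0516 and 0.0520 for Dbt, and 0.0974 and 0.103 for Bckdhb. Bckdhb also lost its call without C26 replicate 2 (BH-adjusted p = 0.112, limma), with FPKM as deposited (0.0565) and with quantile normalization (0.151).

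Bckdk (Entrez 12041, chromosome 7 from 127904073 to 127909664) had 46.6, 37.9 and 70.25 FPKM in C26 replicates 1, 2 and 3 and 63.0, 69.9 and 59.4 FPKM in controls. C26 replicates 1 and 2 were below all controls and C26 replicate 3 was above them. Its log2 fold change of -0.14 (95% interval -0.82 to 0.54) did not pass the test (BH-adjusted p = 0.721, limma). Without C26 replicate 2 it was 0.09. Ppm1k, the gene of the phosphatase that opposes the kinase, had 1.61 ± 0.66 and 2.25 ± 0.51 FPKM and was not called either.

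The kinase was also set against the subunits within each muscle, which needs no scaling between muscles. The log2 level of Bckdk minus the mean log2 level of Bckdha, Bckdhb and Dbt, computed from FPKM + 1, was -0.18, -0.48 and 0.77 in C26 replicates 1, 2 and 3 and 1.40, 1.15 and 1.57 in controls. Every C26 muscle was below every control muscle, and C26 replicate 3 was nearest to the controls. The means were 0.03 ± 0.65 and 1.37 ± 0.21 (SD, n = 3 each), a difference of -1.34 on the log2 scale (two-sided exact permutation test, p = 0.1, the smallest that 3 muscles against 3 allow).

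**Figure D3:**
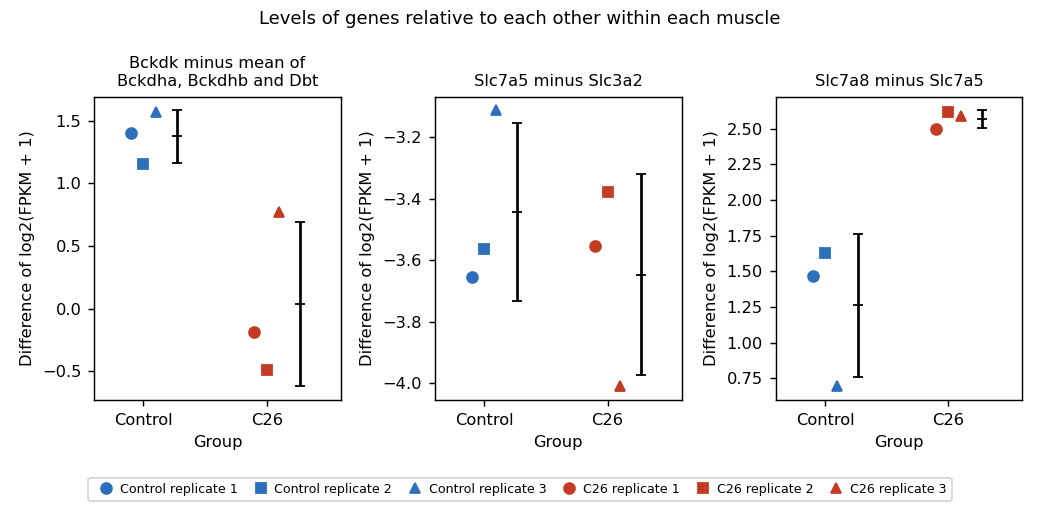
Differences of log2(FPKM + 1) between genes within each muscle (vertical axes) for control (blue) and C26 (red) mice, with mean ± SD in black. Bckdk against its BCKDH subunits is lower in all 3 C26 muscles, and Slc7a5 against Slc3a2 overlaps between the groups. On this scale Slc7a8 against Slc7a5 is higher in all 3 C26 muscles, while plain ratios of their FPKM overlap.

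Along the whole route of branched-chain breakdown, 25 of 26 genes were listed, and Bcat1 had no value analysed here. Of the 25, 11 were higher, 0 were lower and 14 did not pass the test, with 0 lower at an unadjusted p under 0.05 as well, and the median log2 fold change was 0.62, beside 19.4% higher and 14.5% lower among all genes. Echs1, the short-chain enoyl-CoA hydratase, had 165 ± 18.7 FPKM in C26 and 63.3 ± 17.8 in control muscles, giving a log2 fold change of 1.62 (standard error 0.27, BH-adjusted p = 0.00819, limma), and kept its call with each muscle left out. Acadsb, the dehydrogenase of the isoleucine branch, Acat1, the thiolase of the last step of that branch, and Slc25a44, the mitochondrial carrier of branched-chain amino acids, followed, with levels of 81.3 ± 32.4, 158 ± 28.7 and 18.6 ± 4.22 FPKM in C26 and 32.7 ± 7.80, 77.3 ± 20.8 and 8.96 ± 1.74 in control muscles. Their calls were lost without C26 replicate 1 or control replicate 1, and for Acat1 also without C26 replicate 2. Echs1 and Acat1 also serve fatty acid and ketone body breakdown. Mccc1 and Mccc2, the carboxylase of the leucine branch, were not called and had log2 fold changes of 0.03 and 0.04. Without C26 replicate 1 or control replicate 1, 1 of the 25 genes was called higher in each fit, and without C26 replicate 2 it was 5. Over all genes, the calls without C26 replicate 1 were 1131 higher and 669 lower, and without control replicate 1 they were 1152 and 724, against 2590 and 1931 with all muscles.

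**Figure D4:**
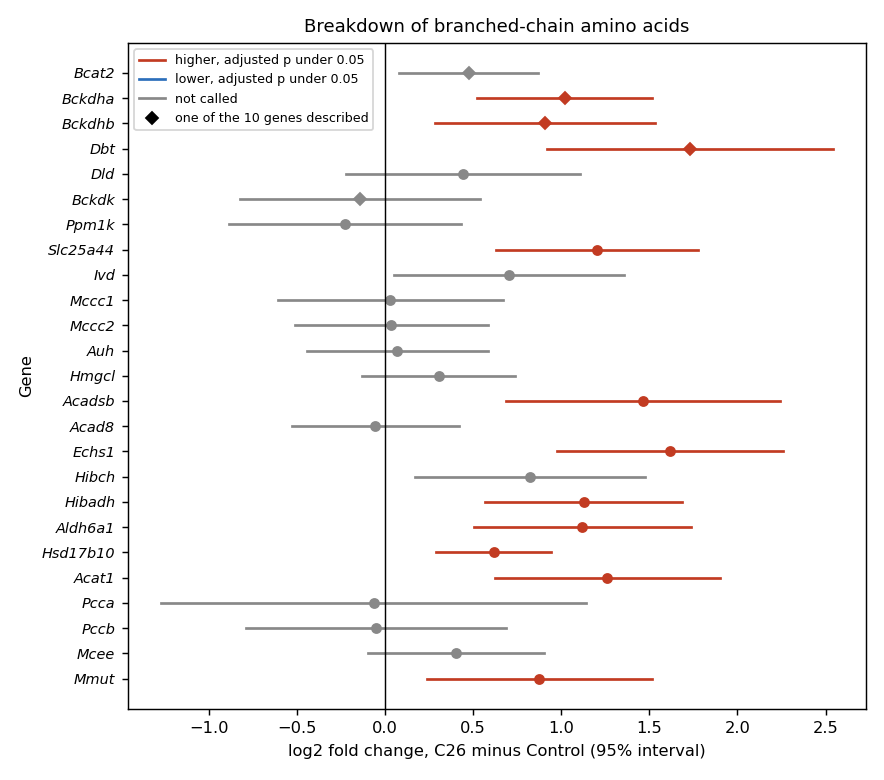
Log2 fold changes (C26 minus control, horizontal axis) with 95% intervals for the 25 listed genes of branched-chain amino acid breakdown, starting with Bcat2 and the BCKDH complex and colored by the call. Dbt at 1.73 and Echs1 at 1.62 have the largest values, and Bckdk at -0.14 lies near 0.

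Slc7a8 (Entrez 50934) lies on the minus strand of chromosome 14 from 54722215 to 54781886. It had 13.4, 20.2 and 9.10 FPKM in C26 replicates 1, 2 and 3 and 3.40, 3.21 and 3.62 FPKM in controls. The controls were nearly alike, and the lowest C26 muscle, C26 replicate 3, was above all of them. Its log2 fold change was 2.01, a 4.04-fold difference just past the DEG criterion (standard error 0.25, BH-adjusted p = 0.00418, limma). It was 1.72 with FPKM as deposited and 1.76 to 2.33 with each muscle left out, with adjusted p up to 0.0262, so the call held while the fold criterion did not always.

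Slc7a5 (Entrez 20539, chromosome 8 from 121881146 to 121907686), the light chain best known from proliferating cells, was the least abundant member in both groups. It had 1.55, 2.46 and 0.68 FPKM in C26 muscles and 0.59, 0.36 and 1.86 FPKM in controls. The groups overlapped, and control replicate 3 was above C26 replicates 1 and 3. Its log2 fold change of 0.67 (95% interval -0.32 to 1.65) did not pass the test (BH-adjusted p = 0.243, limma). Control replicate 3 also had the highest summed immune markers of the controls, at 244 FPKM against 53.0 and 36.7, and Ptprc, the pan-leukocyte marker, at 40.1 FPKM against 0.81 and 0.40, while C26 replicate 2, the C26 muscle with the highest Slc7a5 level, had the highest sum of all, at 285 FPKM against 84.5 and 32.6 in the other C26 muscles. The part of these cells in the Slc7a5 levels was not tested.

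Slc3a2 (Entrez 17254, chromosome 19 from 8706882 to 8723369) had 28.9, 35.0 and 26.1 FPKM in C26 muscles and 19.0, 15.1 and 23.75 FPKM in controls. The gap between the lowest C26 muscle and the highest control was small. A log2 fold change of 0.85 (standard error 0.16, BH-adjusted p = 0.0122, limma) was found, and the call was lost without control replicate 1 (0.0529), with FPKM as deposited (0.0574) and with quantile normalization (0.0920). Slc38a2 (Entrez 67760, chromosome 15 from 96687392 to 96699728) had 24.6, 29.65 and 35.8 FPKM in C26 muscles and 16.8, 15.3 and 22.5 FPKM in controls. Here C26 replicate 3 was the highest muscle, unlike in Glul, Dbt and Slc7a8. The log2 fold change of Slc38a2 was 0.92 (standard error 0.21, BH-adjusted p = 0.0183, limma). Its call was lost without C26 replicate 2 (0.0536), control replicate 1 (0.0718) or control replicate 2 (0.0550), and with quantile normalization (0.110).

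The light chains were compared with each other, and Slc7a5 with its heavy chain, within each muscle as differences of log2(FPKM + 1). Slc7a8 minus Slc7a5 was 2.50, 2.62 and 2.59 in C26 and 1.47, 1.63 and 0.69 in control muscles. The groups did not overlap, and the means of 2.57 ± 0.06 and 1.26 ± 0.50 differed by 1.30 (two-sided exact permutation test, p = 0.1, the smallest possible). The separation depended on the value added, as Slc7a5 had only 0.36 to 2.46 FPKM. With a pseudocount of 0.1 the difference was 1.16. By plain ratio of FPKM the groups overlapped. Control replicate 2 (3.21 against 0.36) then stood above C26 replicates 1 (13.4 against 1.55) and 2 (20.2 against 2.46). Slc7a5 minus Slc3a2 was -3.55, -3.38 and -4.01 in C26 and -3.66, -3.56 and -3.11 in control muscles. These groups overlapped, and the difference of -0.20 was within the spread of either group (exact permutation test, p = 0.6), turning to 0.15 with a pseudocount of 0.1.

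Among 34 amino acid transporter genes, 27 were listed, and 8 were higher, 5 lower and 14 not called, with a median log2 fold change of 0.14. Beside the 19.4% of all genes that were higher and the 14.5% that were lower, the share of lower transporters was not far from the background. Slc7a2, a carrier of arginine and lysine, rose most, with 134, 107 and 124 FPKM in C26 and 20.6, 22.2 and 13.0 in control muscles. Its log2 fold change was 2.91 (standard error 0.27, BH-adjusted p = 0.00210, limma). Slc43a2 (LAT4) and Slc43a1 (LAT3), which let branched-chain amino acids and other large neutral amino acids pass without a heavy chain, rose by log2 fold changes of 2.41 and 1.86. They had 16.5 ± 9.02 and 23.2 ± 6.60 FPKM in C26 muscles and 2.80 ± 0.34 and 6.86 ± 1.75 in control muscles. Slc1a1, a glutamate carrier, rose from 0.423 ± 0.110 to 1.90 ± 0.11 FPKM. These 4 kept an adjusted p under 0.05 with each muscle left out.

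Slc1a5 (ASCT2), a sodium-dependent glutamine exchanger, moved the other way. It had 4.09, 4.61 and 4.82 FPKM in C26 replicates 1, 2 and 3 and 143, 56.2 and 33.4 FPKM in controls. The C26 muscles were close together, and the controls spread over a wide range above them. This gave a log2 fold change of -3.47 (standard error 0.50, BH-adjusted p = 0.00598, limma), and -2.93 (BH-adjusted p = 0.0166, limma) without control replicate 1. The other lower transporters were Slc36a2, Slc7a10 and Slc1a3, with log2 fold changes of -2.71, -2.53 and -1.52, and Slc6a6, named here after its value was seen, with -0.75. With a pseudocount of 0.1 the values were -4.36, -4.35 and -2.62 for the low genes Slc36a2, Slc7a10 and Slc1a3. Slc1a5, which was not low in controls, moved little, to -3.61. Its place in the order of these falls thus depended on the pseudocount. Slc36a2 had 5.34 ± 3.23 FPKM in controls and 0.147 ± 0.072 in C26 muscles, and Slc7a10 had 12.03, 3.84 and 0.78 FPKM in control replicates 1, 2 and 3 and 0.06 to 0.15 in C26 muscles. Slc7a10 and Slc36a2 are known as carriers of the fat cell surface. The adipocyte marker Adipoq had 176, 79.3 and 11.5 FPKM in the same controls and 0.18 to 3.11 in C26 muscles, the order of Slc1a5 and Slc7a10 among the controls, and its part in these falls was not tested. The call for Slc7a10 (BH-adjusted p = 0.0384, limma) was lost on dropping any single muscle but control replicate 3. The call for Slc1a3 was lost without C26 replicate 1, C26 replicate 2 or control replicate 1, and that for Slc6a6 without any of these or control replicate 2. Lower transporters then numbered 2 without C26 replicate 1, C26 replicate 2 or control replicate 1, and 3 without control replicate 2.

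**Figure D5:**
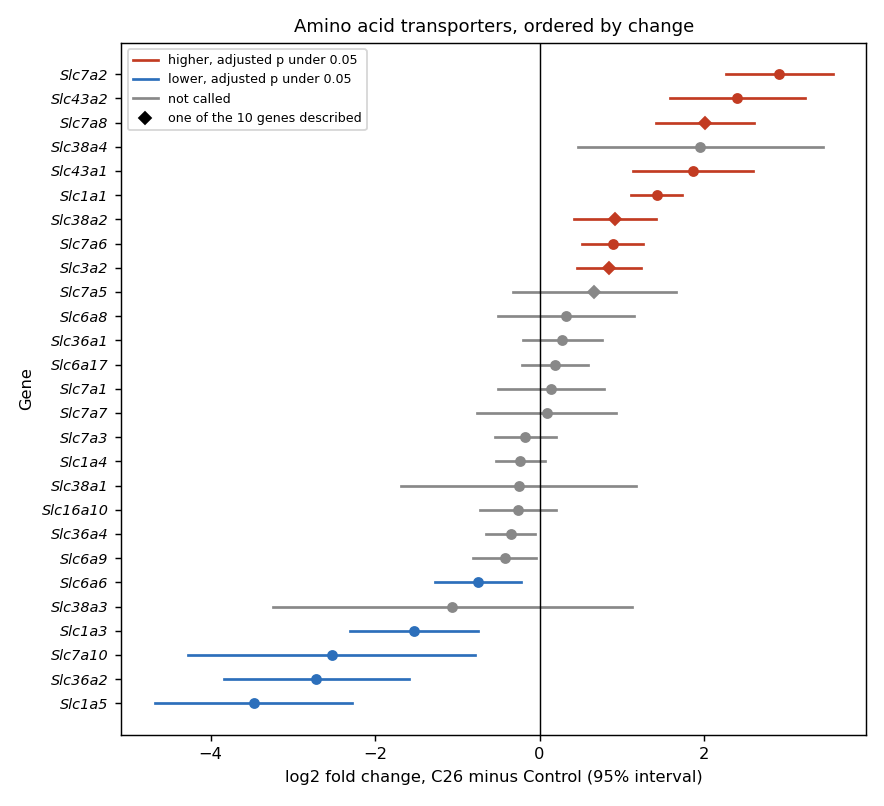
Log2 fold changes (C26 minus control, horizontal axis) with 95% intervals for the 27 listed amino acid transporter genes, ordered by change and colored by the call. Slc7a2 at 2.91 and Slc43a2 at 2.41 stand at the top with Slc7a8 at 2.01 after them, and Slc1a5 at -3.47 stands at the bottom on this scale with a pseudocount of 1.

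By level per transcript length, the order of the 10 genes in control muscles was Glul, Bckdha, Bckdk, Bcat2, Bckdhb, Slc3a2, Slc38a2, Dbt, Slc7a8 and Slc7a5. In C26 muscles it was Glul, Bckdha, Bcat2, Bckdk, Bckdhb, Slc38a2, Slc3a2, Dbt, Slc7a8 and Slc7a5. Among controls the neighbours whose ranges overlapped were Glul with Bckdha, Bckdhb with Slc3a2 and Slc3a2 with Slc38a2. Among C26 muscles each of Bcat2, Bckdk, Bckdhb, Slc38a2 and Slc3a2 overlapped the next in that order up to Slc3a2, and Dbt overlapped Slc7a8. Bckdk was clear of Bcat2 in controls, where its lowest value of 59.4 FPKM exceeded the highest Bcat2 value of 45.0, and in C26 muscles both lay near 52 FPKM, at 51.6 ± 16.7 and 52.3 ± 8.40.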

How the data were processed

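The gastrocnemius of 3 C26 and 3 control mice was sequenced, and the condition of each muscle and its replicate number come from its title. The authors depleted rRNA, sequenced single-end reads of 50 bases, removed adaptor, low-quality and rRNA reads, aligned them with bowtie2 to GRCm38.p5 and deposited FPKM values from RSEM, given to 2 decimals. The submitters' processing notes list HISAT2 2.0.4, Bowtie2 2.2.5, RSEM 1.2.12 and the build mm9, and the extraction text of the labels names infected cells in place of muscle. The deposited values carry no coordinates, so positions come from RefSeq on GRCm38.p6. Read counts were not analysed here, so depth and counting error are unknown. The labels do not say more of each mouse, and p-values measure the spread between these muscles.

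Symbols were found for 13327 of the 13363 Entrez IDs. FPKM were rescaled to TPM, divided by unweighted TMM factors (trims of 30% for log ratios and 5% for levels, factors 0.903 to 1.08) and log2-transformed after adding 1, so changes of low genes are understated. Levels, ranges and marker sums printed as FPKM were not rescaled, so their ratios can differ from the fold changes. Groups were compared with limma 3.58.1 under R 4.3.3, with adjustment over all genes, and the fits were tested on simulated data. Differences within a muscle were tested by exact permutation with scipy 1.17.1. Genes were named by rule: the 10 members, up to 4 called genes per direction from each of 3 pathway lists, and the 3 genes most like Glul. The members and lists were chosen with earlier results of these data known. Alternatives were a pseudocount of 0.1, leaving out genes with a mean TPM under 1, TMM factors omitted, FPKM as deposited, quantile normalization of log2 TPM, scaling without the 20 most abundant genes, an intensity trend, a replicate block, and each muscle left out. Some members of the lists are not reported here.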

Additional observations from a re-analysis of the deposited data

How the results depend on the processing

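With quantile normalization 4 of the 10 members were called higher in place of 7, and 1 glutamine or glutamate enzyme in place of 3 and 3 transporters in place of 5 were called lower. With FPKM as deposited, 5 of these enzymes were called higher in place of 8, and 40.1% of the calls over all genes were upward in place of 57.3%. The listed FPKM summed to 531061 to 585169 in C26 and to 626992 to 688300 in control muscles, and FPKM as deposited keep that gap. Its part in these counts was not tested, nor was the cause of those with quantile normalization. With each muscle left out, 2 to 8 members, 5 to 10 glutamine or glutamate enzymes, 1 to 13 branched-chain genes and 6 to 9 transporters were called higher, and 1 to 4 of the enzymes and 2 to 5 transporters lower. Members called higher were 2 without control replicate 1 and 4 without C26 replicate 1. Enzymes called higher were 5 without C26 replicate 2, control replicate 1 or control replicate 3, and 1 was called lower without C26 replicate 1, C26 replicate 2 or control replicate 1. Transporters called lower were 2 without C26 replicate 1, C26 replicate 2 or control replicate 1 and 3 without control replicate 2. The Slc7a5 against Slc3a2 difference of -0.20 turned to 0.15 with a pseudocount of 0.1, and the log2 fold change of -0.14 of Bckdk turned to 0.088 without C26 replicate 2 and was at its lowest, -0.34, without C26 replicate 3. With the replicate block, 6 members, 6 enzymes, 10 branched-chain genes and 9 transporters were called higher, and Bckdhb lost its call (adjusted p = 0.0540, limma). Over all genes the block gave 1844 higher and 1236 lower. Same-numbered muscles did not deviate together (correlations -0.11 to -0.04, and 0 of 6 muscles correlated best with its own number). With 3 muscles a group, centred on their group mean, this cannot show whether the numbers pair the mice. The block left the within-muscle difference of Bckdk at -1.34 (exact sign-flip test, p = 0.25, the smallest possible). Of the single-gene values under the other alternatives, 243 kept their direction and call, 12 lost the call and 1 gained it. With single muscles left out, 157 kept both, 33 lost the call, 1 gained it and 1 reversed. With 3 muscles a group, the exact tests could not reach 0.05.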

Other observations

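The glutamine and alanine carriers Slc38a3 (SNAT3) and Slc38a4 (SNAT4), named here after their values were seen, split the C26 muscles. Slc38a3 had 2.86 and 3.72 FPKM in C26 replicates 1 and 2, 36.7 in C26 replicate 3 and 16.0 to 22.6 in control muscles. Slc38a4 went the other way, with 54.8, 91.8 and 13.6 FPKM in the C26 muscles and 10.2 to 13.3 in controls. Neither was called with all muscles, with log2 fold changes of -1.06 (95% interval -3.25 to 1.12) and 1.96 (0.47 to 3.44) and adjusted p of 0.391 and 0.0515 (limma with Benjamini-Hochberg adjustment). Without C26 replicate 3 the log2 fold changes were -2.12 and 2.78. The genes and the muscle left out were picked from these same values, so that fit is no test of them. With all muscles, Slc38a4 passed narrowly with a pseudocount of 0.1, a mean TPM of at least 1 or scaling without the 20 most abundant genes. It also passed with an intensity trend or the replicate block, at adjusted p (limma) down to 0.0397 over these settings. Under the other alternatives its adjusted p reached 0.0903. Pcca, a carboxylase subunit that handles propionyl-CoA from isoleucine and valine, had 9.36, 7.15 and 24.6 FPKM in C26 muscles and 10.7 to 18.4 in controls. The same C26 replicate 3 had the highest level of the oxygen carrier myoglobin (Mb), at 4906 FPKM against 275 and 74.0 in the other C26 muscles and 578 to 1569 in controls, and of the fast myosin Myh1, at 2555 FPKM against 299 and 254 and 92.8 to 331. The part of fiber type in these values was not tested.

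Asns, which makes asparagine from aspartate and glutamine, had 0.82 to 1.04 FPKM in C26 muscles and 3.54, 2.80 and 0.83 FPKM in control replicates 1, 2 and 3, also named after its values were seen. Its log2 fold change was -0.72 (95% interval -1.67 to 0.24) and was not called (adjusted p = 0.202, limma with Benjamini-Hochberg adjustment). Control replicate 3 lay with the C26 muscles. Without it, the log2 fold change was -1.20. The other 5 fits with a muscle left out did not pass (adjusted p up to 0.468, limma). The gene and control replicate 3 were picked from these same values, so the fit without that muscle is no test.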
